A study of Mus musculus with 7 samples.

Results

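The mast cell genes described here are Cpa3, Mcpt4, Cma1, Tpsb2, Kit, Fcer1a, Hdc and Ms4a2. They were taken as every probe set that the array annotation assigns to exactly 1 of these 8 symbols, which gave 12 of the 45101 probe sets on the array. Of these, 5 probe sets, 1 each for Cpa3, Mcpt4, Cma1, Tpsb2 and Kit, had a mean signal above the filter on weak probe sets (23.6) and entered the test. The other 7 did not, and Fcer1a, Hdc and Ms4a2 had no probe set that did. Just inside the filter lay Tpsb2, with a mean of 42.8, and just outside it Fcer1a, with 22.8.

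RNA of mouse carotid artery was hybridised to Affymetrix arrays to compare the offspring of reciprocal crosses, and the series asks whether high cholesterol in 1 parent bears on the offspring's susceptibility to atherosclerosis. In 3 arrays the mother was normocholesterolemic wild type and the father ApoE-/- (the wild-type mother group), and in 4 arrays the mother was hypercholesterolemic ApoE-/- and the father wild type (the ApoE-null mother group). All offspring, in both groups, were ApoE-/+, with 1 null allele of the gene for apolipoprotein E, which lets the liver take up lipoproteins. The labels give no strain, age, sex, litter or diet, and do not say whether an array holds RNA of 1 animal, so tests below measure the spread between these samples only. Both parents changed between the groups, so mother and father cannot be told apart. Arrays are numbered within their group in accession order, as names only.

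Mast cells are tissue-resident immune cells that mature in vascularised connective tissue, including the adventitia around arteries. They survive on KIT, the receptor for stem cell factor, and store histamine, heparin and proteases in granules that are released when IgE bound to its high-affinity receptor is cross-linked by antigen. In mice, mast cells of connective tissue are known for carboxypeptidase A3, the chymases of Mcpt4 and Cma1 and the tryptases, and those of mucosa for Mcpt1 and Mcpt2. In atherosclerosis, mast cells are found in the adventitia and in plaques.

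The windows of 250 bases that end at the start site of each gene are shown first, for the 4 measured genes with an entry in the RefSeq promoter table (build GRCm38.p6) because these 4 varied together over the arrays, and for Fcer1a, the gene of the subunit that binds IgE. Cpa3 lies at chr3:20242182-20242431, Mcpt4 at chr14:56062311-56062560, Cma1 at chr14:55944676-55944925 and Fcer1a at chr1:173227230-173227479, all read on the minus strand, and Kit at chr5:75574737-75574986 on the plus strand. Capitals mark the GATA motif (the letters GATA with A or T before and A or G after, on either strand, printed as they read in the gene's direction) and the TATA motif (TATAAA in the gene's direction). The table matched 7 of the 8 genes, and Kit had 2 windows, of which the first is shown.
Cpa3: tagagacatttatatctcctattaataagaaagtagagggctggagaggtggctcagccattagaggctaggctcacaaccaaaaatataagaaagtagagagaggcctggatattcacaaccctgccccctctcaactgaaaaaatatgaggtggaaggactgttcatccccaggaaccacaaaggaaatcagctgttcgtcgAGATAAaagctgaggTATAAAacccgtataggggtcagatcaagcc
Mcpt4: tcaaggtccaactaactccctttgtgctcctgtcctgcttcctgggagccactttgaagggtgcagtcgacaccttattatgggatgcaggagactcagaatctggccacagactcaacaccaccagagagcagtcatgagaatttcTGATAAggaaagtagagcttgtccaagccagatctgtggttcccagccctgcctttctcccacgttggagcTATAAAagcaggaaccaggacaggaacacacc
Cma1: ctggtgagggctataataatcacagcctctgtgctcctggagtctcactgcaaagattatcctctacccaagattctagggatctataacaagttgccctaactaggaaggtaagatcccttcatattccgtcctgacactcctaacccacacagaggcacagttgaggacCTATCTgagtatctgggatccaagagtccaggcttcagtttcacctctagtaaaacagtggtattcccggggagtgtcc
Kit: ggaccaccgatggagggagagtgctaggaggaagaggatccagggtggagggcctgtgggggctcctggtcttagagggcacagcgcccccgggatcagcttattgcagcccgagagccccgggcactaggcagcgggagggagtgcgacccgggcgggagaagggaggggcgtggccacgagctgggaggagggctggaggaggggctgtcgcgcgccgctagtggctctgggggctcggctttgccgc
Fcer1a: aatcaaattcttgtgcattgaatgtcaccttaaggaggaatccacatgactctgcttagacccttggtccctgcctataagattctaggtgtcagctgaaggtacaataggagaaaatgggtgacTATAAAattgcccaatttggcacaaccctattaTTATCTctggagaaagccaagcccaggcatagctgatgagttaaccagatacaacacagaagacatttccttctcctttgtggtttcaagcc

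The GATA motif, which is bound by the GATA factors of haematopoietic cells, was in the windows of 6 of the 7 genes, and in 26.5% of all 32851 windows of the table. It lay 46 bases before the start in Cpa3, 103 in Mcpt4, 79 in Cma1 and 92 in Fcer1a. Hdc had it at 221 bases, Ms4a2 at 224, 37 and 11, and the Kit window lacked these letters. TATAAA was in 3 of the 7, at 31 bases before the start in Cpa3, 32 in Mcpt4 and 125 in Fcer1a, against 7.59% of all windows. Of the letters CATGTG or CACGTG on either strand, an E-box that the factor MITF can bind, there was 1 match, in Fcer1a at 208 bases, against 17.6% of all windows. The Kit window also differed in composition, with 70.8% G and C and 17 CpG, while those of Cpa3, Mcpt4 and Cma1 had 44.4%, 51.2% and 48.0%, and the median over all windows was 52.4% with 6 CpG. The motifs were chosen with the array values known, and a match is a description of letters only.

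No mast cell gene passed the test between the crosses, yet the measured ones were among the more variable genes of the arteries. Signals of Cpa3, Mcpt4, Cma1, Tpsb2 and Kit spanned 3.03- to 4.5-fold over all 7 arrays, from an array of one cross to an array of the other. Within a cross they still spanned 2.27- to 3.61-fold with a wild-type mother, and 2.25- to 3.72-fold in the other group. All 5 had their lowest signal on wild-type mother 3, their highest on ApoE-null mother 3, and the same 3 arrays at the bottom: wild-type mother 3 and ApoE-null mother 1 and 4. In whole tissue, fewer mast cells and less of their RNA per cell cannot be told apart.

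Values are MAS5 signals, a linear intensity that the authors scaled to the same trimmed mean (200) on every array. As a measure of background, the highest of 27 probe sets for bacterial transcripts was 10 to 22 per array, and all 5 measured genes lay above it on all 7 arrays. Differences are the ApoE-null mother group minus the other on the scale of log2(signal + 2), from limma over 27022 probe sets, with Benjamini-Hochberg adjustment and a threshold of 0.05. At that threshold 0.00787% of the 12711 genes tested were called, which was Adcy1 alone, and 0 of the 5 mast cell genes. At an unadjusted p under 0.05 in limma stood 8.65% of all genes and again 0 of the 5, and 8.58% of all genes but none of the 12 mast cell probe sets had groups that did not overlap.

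Wild-type mother 2 stood apart from the other arrays. It had a Xist signal of 41.2, against 5174.1 to 5930.9 on the other 6 arrays, and a summed signal of skeletal muscle markers of 1695.7, against 89.0 to 195.3. It also had the highest ratio of 3 prime to 5 prime Gapdh signal (7.80, against 5.03 to 6.56), which rises as RNA is degraded. Thymocyte markers moved with the cross, their summed signal being 45.5 to 155.2 in the wild-type mother group and 375.8 to 657.0 in the ApoE-null mother group. All 5 smooth muscle, all 5 endothelial and all 5 fibroblast genes on the lists were above the bacterial probe sets on all 7 arrays. So were all 7 macrophage genes and the 4 measured adipocyte genes. Of all probe sets, 61.9% to 74.7% per array were above the bacterial ones, so this check does not single out the labelled tissue.

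Cpa3 encodes carboxypeptidase A3, a protease that mast cells store bound to heparin. Its signals were 341.6, 272.4 and 137.4 on wild-type mother 1 to 3 and 141.5, 474.7, 526.1 and 151.5 on ApoE-null mother 1 to 4. The ApoE-null mother group thus held 2 arrays above the whole other group and 2 close to its lowest array, and the groups overlapped. The group means were 250 ± 104 (SD, n = 3) and 323 ± 205 (SD, n = 4), in that order. The log2 difference was 0.21 with a standard error of 0.48 and a 95% interval of -0.84 to 1.26 (limma, adjusted p = 0.929; exact permutation p = 0.800, both sides). On the linear scale the interval runs from 0.559- to 2.39-fold, so these arrays leave room for a change of that size either way. With 35 splits of 3 and 4 arrays, the smallest p the permutation test can give is 0.0286.

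The chymases are serine proteases of the granule. Cma1, which encodes mast cell protease 5, had signals of 220.8, 199.8 and 74.6 with a wild-type mother and 87.0, 184.4, 230.9 and 89.9 with an ApoE-null mother. Within each group its arrays thus spanned 2.96- and 2.65-fold. The means of 165 ± 79.0 (SD, n = 3) and 148 ± 71.4 (SD, n = 4) gave a log2 difference of -0.14 (standard error 0.42, interval -1.06 to 0.78; limma, adjusted p = 0.947; exact permutation p = 0.886). Cma1 was the 1 measured mast cell gene with a negative difference.

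Mcpt4 encodes the chymase that in mice is regarded as the counterpart of the human enzyme, and cleaves angiotensin and fibronectin. It had signals of 98.2, 75.0 and 27.2 with a wild-type mother and 62.7, 115.8, 122.3 and 44.7 with an ApoE-null mother. Its lowest and highest arrays lay 4.5-fold apart, the widest span of the 5 measured genes, and the ApoE-null mother group had 2 arrays within the range of the other group and 2 above it. The means were 66.8 ± 36.2 (SD, n = 3) and 86.4 ± 38.5 (SD, n = 4), a log2 difference of 0.42 (standard error 0.44, interval -0.55 to 1.4; limma, adjusted p = 0.820; exact permutation p = 0.514). On the linear scale the upper bound of that interval is 2.64-fold.

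Tpsb2 encodes mast cell protease 6, a tryptase that forms tetramers on heparin. The measured probe set had signals of 55.7, 42.3 and 24.5 with a wild-type mother and 27.1, 45.0, 75.4 and 29.6 with an ApoE-null mother. The highest array, ApoE-null mother 3, and the lowest, wild-type mother 3, were the same as for the other proteases. The means of 40.8 ± 15.7 (SD, n = 3) and 44.3 ± 22.2 (SD, n = 4) differed by 0.07 on the log2 scale (standard error 0.39, interval -0.79 to 0.93; limma, adjusted p = 0.970; exact permutation p = 0.886). A second probe set of Tpsb2 had 14.4, 9.5 and 16.6 with a wild-type mother and 20.6, 23.3, 17.5 and 4.0 with an ApoE-null mother. It was above the bacterial probe sets on 4 arrays. Unlike the measured probe set, it was highest on ApoE-null mother 2 and lowest on ApoE-null mother 4. With 3 arrays at background, that order is uncertain.

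Kit encodes the receptor tyrosine kinase on which mast cells depend. Its measured probe set had signals of 112.3, 69.7 and 39.3 with a wild-type mother and 52.9, 105.2, 119.2 and 67.7 with an ApoE-null mother. The groups overlapped, with means of 73.8 ± 36.7 (SD, n = 3) and 86.3 ± 31.1 (SD, n = 4). The log2 difference was 0.27 (standard error 0.36, interval -0.53 to 1.07; limma, adjusted p = 0.863; exact permutation p = 0.6). A second Kit probe set stayed between 2.3 and 12.6, at or below the bacterial probe sets on all 7 arrays, and gives no order. Melanocytes also express Kit. Dct, Pmel and Mlana, of the 5 melanocyte markers, were above the bacterial probe sets on all 7 arrays, Tyr on 5 and Tyrp1 on 1. The summed signal of the 5 genes was 115.7 to 216.6 on the wild-type mother arrays, against 124.1 to 225.3 on the others. That sum was lowest on wild-type mother 3, where Kit was also lowest, and highest on ApoE-null mother 2, where Kit was high, while on ApoE-null mother 1, where Kit was low, it was 213.2. The part of melanocytes in the Kit signal was not tested.

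**Figure D1:**
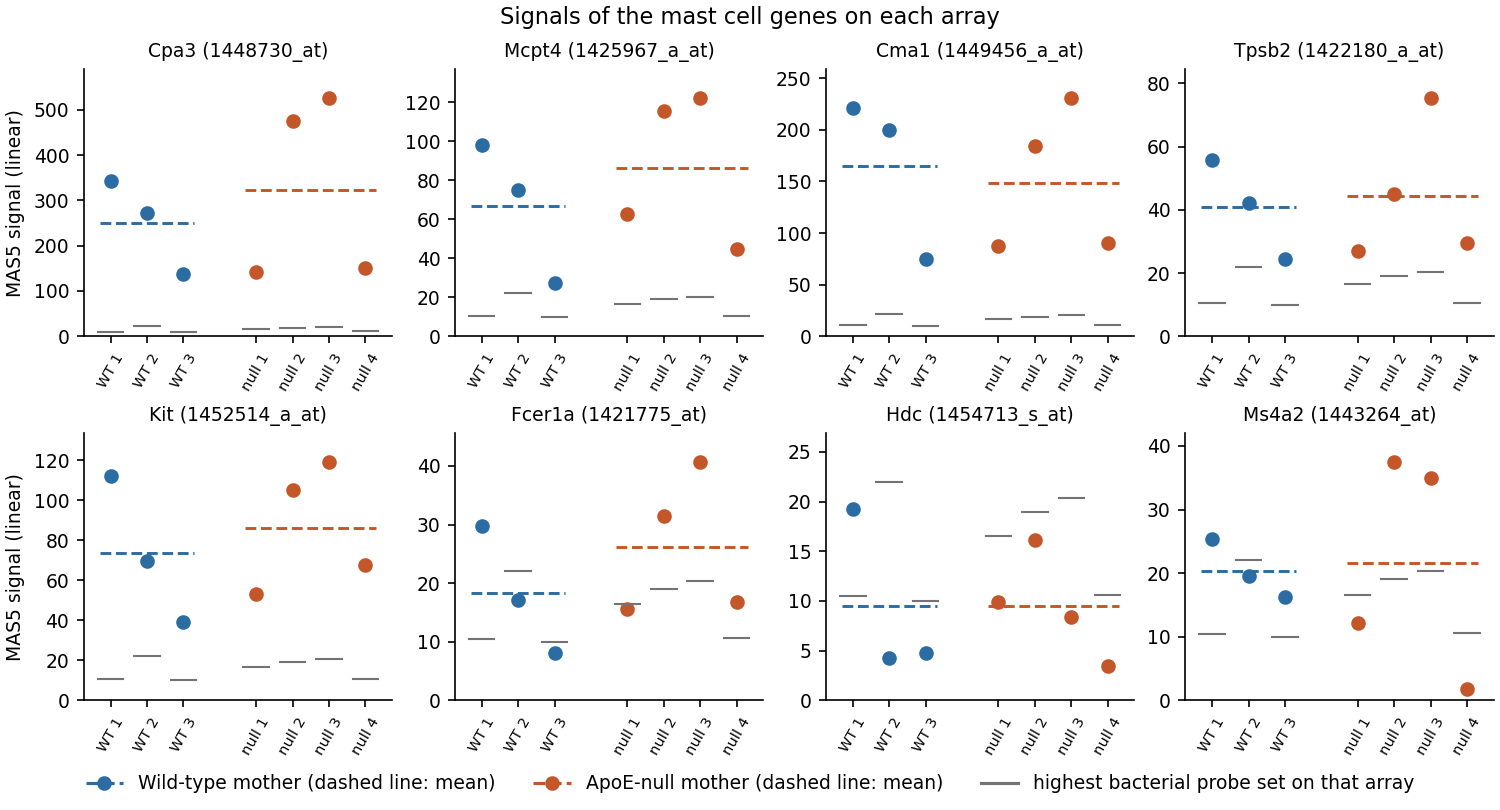
Linear MAS5 signal of each mast cell gene on each array, with 1 panel per gene and its strongest probe set, each with its own axis from 0. Points are arrays, dashed lines group means and grey ticks the highest bacterial probe set on that array; Cpa3, Mcpt4, Cma1, Tpsb2 and Kit lie above those ticks throughout, whereas Hdc does so on 1 array.

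The IgE receptor and histamine genes were close to background. Fcer1a encodes the subunit of the high-affinity receptor that binds IgE, and had signals of 29.7, 17.1 and 8.0 with a wild-type mother and 15.6, 31.5, 40.7 and 16.8 with an ApoE-null mother. It exceeded the bacterial probe sets on 4 arrays, wild-type mother 1 and ApoE-null mother 2, 3 and 4, and was highest on ApoE-null mother 3. Ms4a2 encodes the beta subunit, which amplifies the receptor's signal. Its stronger probe set had 25.3, 19.6 and 16.2 with a wild-type mother and 12.2, 37.5, 35 and 1.7 with an ApoE-null mother, again above the bacterial probe sets on 4 arrays. The highest were ApoE-null mother 2 and 3, which were also the highest for Cpa3, Mcpt4 and Fcer1a. Like the second probe set of Tpsb2, those of Fcer1a and Ms4a2 were at background on the remaining arrays, so their order is uncertain too. The other Ms4a2 probe set had 2.6 to 21.8 and exceeded the bacterial ones on 2 arrays.

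Hdc encodes histidine decarboxylase, the enzyme that makes histamine. Its stronger probe set had 19.3, 4.3 and 4.8 with a wild-type mother and 9.9, 16.1, 8.4 and 3.4 with an ApoE-null mother. That was above the bacterial probe sets on wild-type mother 1 alone, and the other probe set, at 1.7 to 3.3, exceeded them on no array. At this background Hdc was not detectable on the other 6 arrays, which does not show that it was absent. Fitted without the filter, the 7 weak probe sets had log2 differences of -0.55 to 0.97, and all 7 intervals included 0. The largest was that of the weaker Ms4a2 probe set (interval -0.11 to 2.05; limma, adjusted p = 0.735), whose signals were at background on all 3 arrays of the wild-type mother group.

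The 5 measured genes deviated from their own means by similar amounts on each array. Averaged over them, the log2 deviation was 0.51, 0.13 and -0.93 on wild-type mother 1 to 3 and -0.54, 0.52, 0.81 and -0.51 on ApoE-null mother 1 to 4. That profile spans 1.74 on the log2 scale, or 3.35-fold. The standard deviation between the 5 genes on 1 array was 0.09 to 0.28. Ratios between pairs of them varied over the arrays with a standard deviation of 0.23, for Tpsb2 against Kit, to 0.39, for Mcpt4 against Tpsb2. They were not the same throughout: on wild-type mother 2 Cma1 was at 0.50 and Kit at -0.11. On ApoE-null mother 1, Mcpt4 was at -0.15 and Cpa3 at -0.84.

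Each of the 5 genes was also set against the mean of the other 4, as a description. Over the 7 arrays Pearson's r was 0.92 to 0.95 and Spearman's rho 0.89 to 0.96, and without the 2 arrays farthest from the median, wild-type mother 3 and ApoE-null mother 3, r was 0.87 to 0.95. The points share arrays and their scaling, and they are unevenly spaced in places, with no Cpa3 signal between 151.5 and 272.4. No r is read from the second probe sets of Tpsb2 and Kit, which were at background on 3 and on all 7 arrays.

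**Figure D2:**
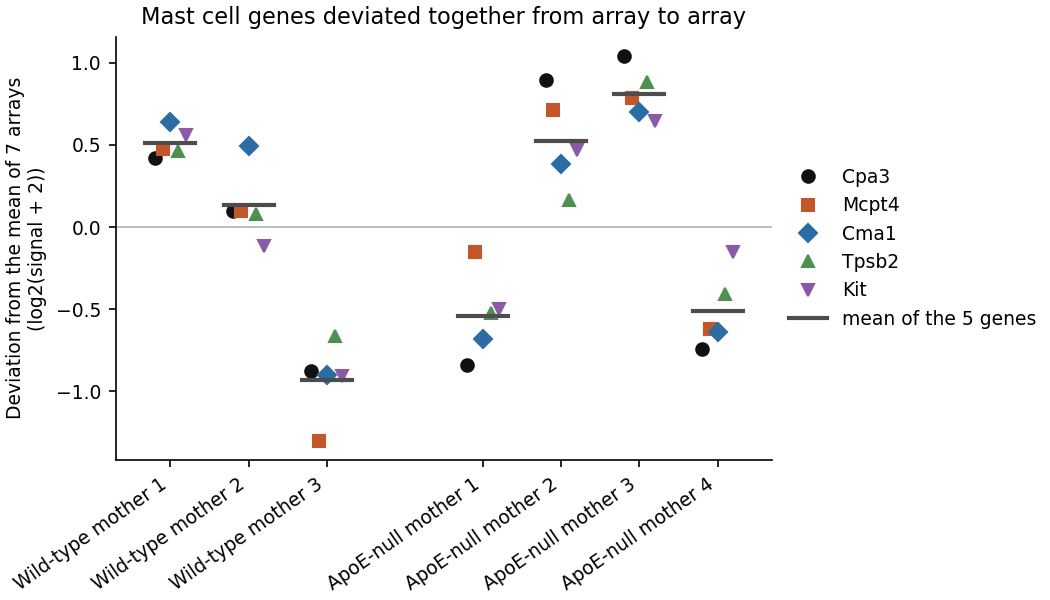
Deviation of Cpa3, Mcpt4, Cma1, Tpsb2 and Kit from their own mean over 7 arrays, on the log2(signal + 2) scale, by array, with bars for the mean of the 5 genes. All 5 are below 0 on wild-type mother 3 and on ApoE-null mother 1 and 4, and all 5 are above 0 on wild-type mother 1 and on ApoE-null mother 2 and 3.

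The spread between arrays of 1 cross was larger for these genes than for most. The standard deviation within groups, on the log2 scale, was 0.90 for Cpa3, 0.80 for Mcpt4, 0.77 for Cma1 and 0.62 for Tpsb2 and Kit, against a median of 0.26 over all 12711 genes. It exceeded that of 96.9% of genes for Cpa3, 96.0% for Mcpt4, 95.6% for Cma1, 93.0% for Kit and 92.9% for Tpsb2. Weak genes vary more on this scale, so each was also read among genes within 2-fold of its mean signal. There Cpa3 exceeded 99.0% of 4422 genes, Cma1 97.6% of 4204, Mcpt4 94.7% of 3783, Kit 90.6% of 3815 and Tpsb2 79.8% of 3370. Limma draws the spread of each gene toward that of genes of similar signal. The intervals between the crosses are therefore narrower than the spread of these genes alone would give. For each of the 5 genes they include both a fall and a rise.

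**Figure D3:**
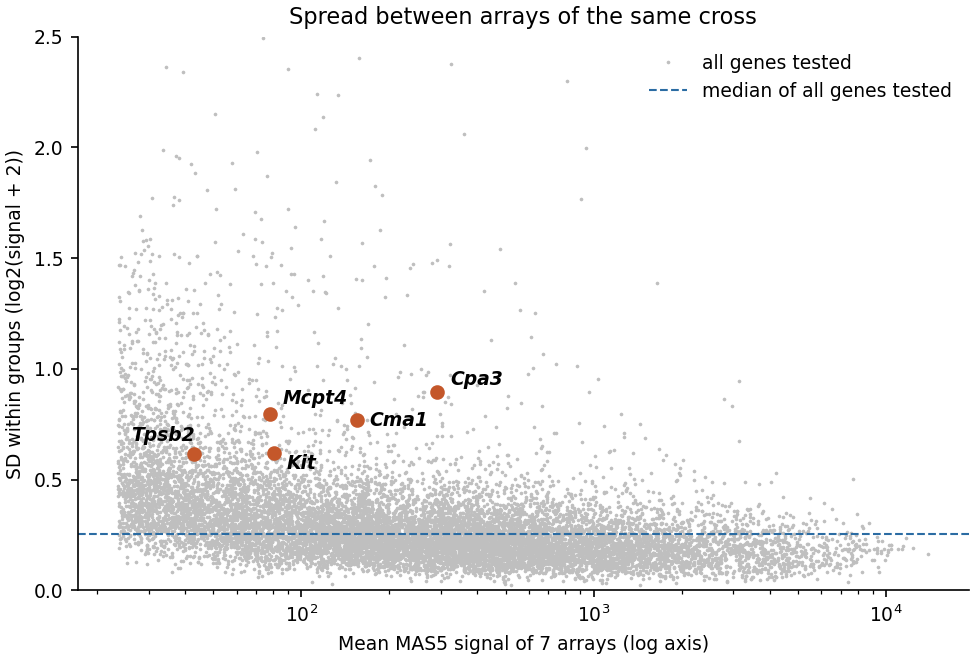
Standard deviation between arrays of the same cross (log2(signal + 2) scale) against mean MAS5 signal (log axis) for all 12711 genes tested, in grey, with the 5 measured mast cell genes in orange and a dashed line at the median (0.26). All 5 lie above that line, and 5 grey genes lie beyond the upper limit of the axis.

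Since 1 array can weigh heavily in groups of 3 and 4, the differences were read again without single arrays. Without wild-type mother 3 they were negative for all 5 genes, at -0.17 for Cpa3, -0.11 for Mcpt4, -0.63 for Cma1, -0.24 for Tpsb2 and -0.11 for Kit. Without wild-type mother 2, the array that stood apart, they were 0.32, 0.59, 0.07, 0.13 and 0.29 in the same order. The median over the 5 genes was 0.21 on all arrays, with 4 positive and 1 negative, beside -0.01 over all genes tested.

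Other genes that act in mast cells were listed by role, 106 in all, of which 94 had a probe set and 65 were measured. None passed the test in either direction, 38 differences were positive and 27 negative, and the median was 0.06. At an unadjusted p under 0.05 in limma stood 4 of the 65, or Kitl, Lat, Pla2g4a and Il4ra, beside the 8.65% of all genes. Most of these genes are expressed by many cells of an artery, so their signals need not come from mast cells.

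Among the other granule proteases, 4 of 12 were measured. Tpsab1, the tryptase closest to Tpsb2, had signals of 12.8, 42.4 and 30.6 with a wild-type mother and 3.8, 26.8, 29.5 and 20.3 with an ApoE-null mother, so its lowest array was not that of Tpsb2 (log2 difference -0.59, interval -1.96 to 0.79; limma, adjusted p = 0.824). That lowest signal of Tpsab1, 3.8 on ApoE-null mother 1, was below the highest bacterial probe set there, 16.5. Whether the probes of these similar genes bind each other's RNA was not tested. Ctsc, the dipeptidyl peptidase that activates granule proteases, had 1486.6 to 1832.3 and a difference of 0.06 (interval -0.22 to 0.33). The mucosal proteases Mcpt1 and Mcpt2, outside the naming rule, were below the filter, at 0.4 to 12.4 and 3.0 to 19.8, and exceeded the bacterial probe sets on 0 and 2 arrays. Basophils share Fcer1a, Ms4a2 and Hdc with mast cells. On the basophil list, Mcpt8 and Cd200r3 exceeded the bacterial probe sets on 0 of 7 arrays, with highest signals of 18.2 and 6.1. Il3ra and Itga2, also on that list, did so on 7 and 5 arrays. Mcpt8, Cd200r3 and Il3ra are on the list of other genes that act in mast cells too. The summed signal of the 4 basophil list genes was 45.6 to 74.6 in the wild-type mother group and 46.9 to 87.0 in the other. The part of basophils in the signals was not tested.

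For the matrix and amines of the granule, 6 of 9 genes were measured. Srgn, whose product serglycin carries the heparin chains, had 2409 ± 192 (SD, n = 3) and 2846 ± 460 (SD, n = 4), a log2 difference of 0.23 (interval -0.08 to 0.54; limma, adjusted p = 0.688). Hnmt, which inactivates histamine, had 355.2 to 391.3 with a wild-type mother, against 399.1 to 490.6 in the other cross, without overlap, and a difference of 0.22 that did not pass (interval -0.09 to 0.54; limma, adjusted p = 0.702). Slc18a2, which loads amines into vesicles, is outside the naming rule and was picked after its values were seen: it had 140.2, 7.2 and 5.3 with a wild-type mother and 8.1, 58.7, 72.1 and 11.9 with an ApoE-null mother. Its 3 highest arrays were those on which Th, a carotid body and sympathetic neuron gene that also goes with amine storage, stood at 687.5, 156.9 and 255.8, against 27.1 to 118.4 elsewhere. Of the other listed markers of carotid body and ganglion, Dbh had the same 3 highest arrays. Chga, Scg2, Uchl1 and Gap43 did not, and had wild-type mother 2 among their 3 highest. The part of those cells in the Slc18a2 signal was not tested.

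On the KIT axis, 10 of 12 genes were measured. Kitl encodes stem cell factor, the ligand of KIT, and had signals of 1497.8, 1141.2 and 1154.5 with a wild-type mother and 1674.8, 1839.5, 1966.8 and 1293.3 with an ApoE-null mother. Of the ApoE-null mother arrays 3 lay above the whole other group and 1 within it. The means were 1265 ± 202 (SD, n = 3) and 1694 ± 292 (SD, n = 4), a log2 difference of 0.42 (interval 0.04 to 0.79; limma, adjusted p = 0.585), which does not pass over all probe sets. The array lowest for Kit, wild-type mother 3, had a Kitl signal close to that of wild-type mother 2.

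None of the transcription factors of this lineage passed the test in limma or stood at an unadjusted p under 0.05. Mitf, needed for mast cell maturation, had 349.0 to 386.3 with a wild-type mother, against 399.7 to 469.2 in the other cross, without overlap, and a log2 difference of 0.25 (interval -0.05 to 0.55; limma, adjusted p = 0.661). Gata2, a factor of blood progenitors and mast cells that endothelium also expresses, had 495.0 to 765.4, with its highest signal on wild-type mother 3, where the mast cell genes were lowest (difference -0.10, interval -0.51 to 0.31). Tal1 and Runx1, factors of blood cell formation, had differences of -0.02 (interval -0.42 to 0.37) and -0.17 (interval -0.72 to 0.39). Cbfb, the partner of RUNX1, had 0.28 (interval -0.18 to 0.74). Its signal was lowest on wild-type mother 3 (629.4) and highest on ApoE-null mother 3 (1211), as those of the mast cell genes were, with 734.7 and 822.4 on ApoE-null mother 1 and 4. Of the signalling genes downstream of KIT, the adaptors Grb2 and Gab2 had -0.03 (interval -0.35 to 0.30) and 0.15 (interval -0.14 to 0.45). Stat5a and Stat5b had 0.28 (interval -0.15 to 0.71) and 0.01 (interval -0.38 to 0.40).

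**Figure D4:**
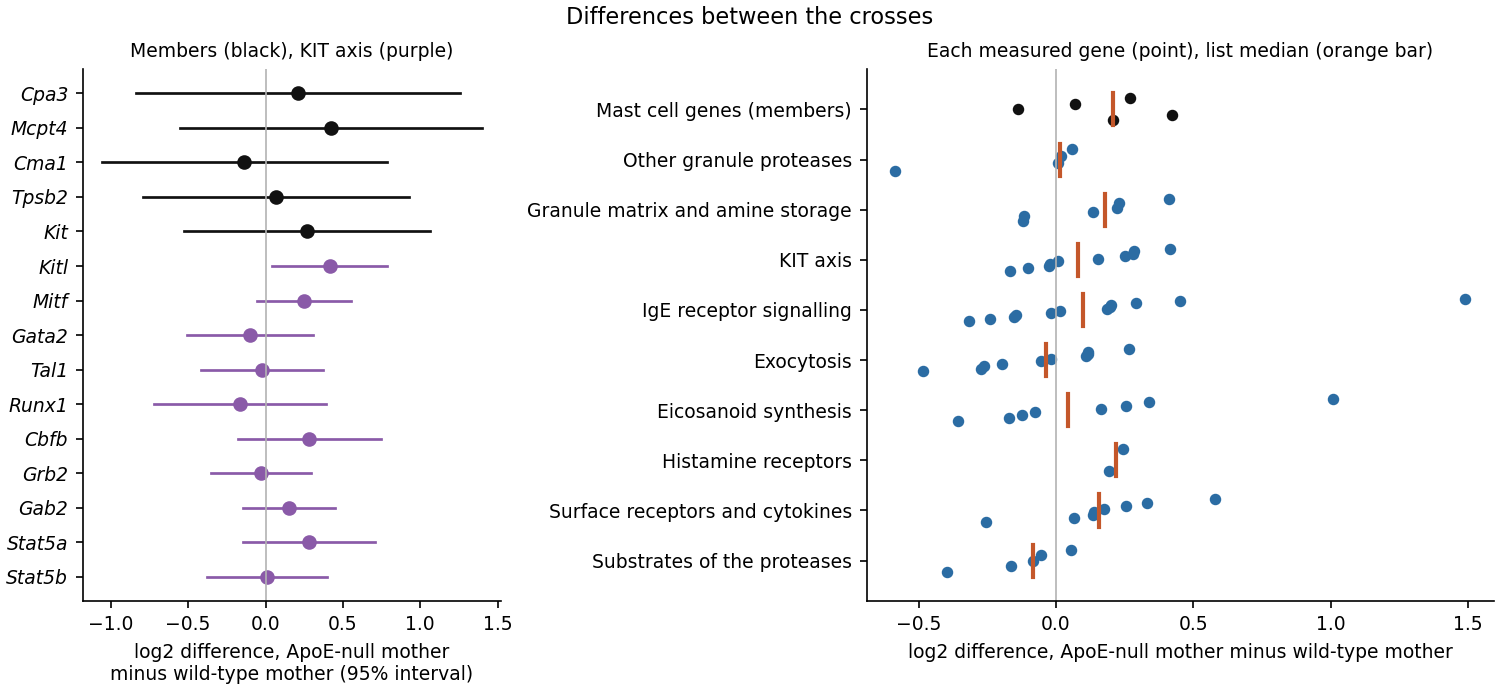
Left, log2 differences between the crosses (ApoE-null mother minus wild-type mother), and their 95% intervals, for the 5 measured mast cell genes in black and the KIT axis in purple; right, the differences of all measured genes by role, with an orange bar at each median. The intervals of the 5 mast cell genes include 0, and that of Kitl runs from 0.04 to 0.79.

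In IgE receptor signalling 12 of 15 genes were measured, 7 positive and 5 negative. Lat, an adaptor of mast cells that T cells also use, had 27.5, 37.6 and 4.4 with a wild-type mother and 43.1, 50.4, 54.1 and 66.7 with an ApoE-null mother. The groups did not overlap, and the log2 difference was 1.49 (interval 0.32 to 2.66; limma, adjusted p = 0.550). On wild-type mother 3 the 4.4 was below the highest bacterial probe set, 10, so this difference rests in part on a signal at background. The thymocyte list, whose 6 genes include Rag1, Dntt and Themis, had a mean log2 deviation of -2.07 to -0.43 in the wild-type mother group and 0.64 to 1.57 in the ApoE-null mother group, and its part in the Lat signal was not tested. Syk, the kinase recruited by the receptor, had 96.9 to 114.9 and 68.7 to 94.9, also without overlap, and a difference of -0.32 (interval -0.74 to 0.10; limma, adjusted p = 0.683). Fcer1g, the gamma subunit shared with other Fc receptors, is outside the naming rule and was picked after its values were seen. It had 146.5 to 251.3 on all 7 arrays, with its highest signal on ApoE-null mother 1, where Fcer1a was at background.

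Exocytosis genes numbered 10 of 11 measured, 4 positive and 6 negative. Unc13d, which primes granules for fusion, had a log2 difference of -0.48 (interval -1.20 to 0.23) and Rab27a, which docks them, of -0.27 (interval -0.70 to 0.15). Of 12 genes for leukotrienes and prostaglandins, 8 were measured. Pla2g4a, the phospholipase that releases arachidonic acid, had 711.6, 868.6 and 848.0 with a wild-type mother and 956.1, 1165.3, 1084.8 and 892.4 with an ApoE-null mother. Its groups did not overlap, and the difference of 0.34 did not pass over all probe sets (interval 0.02 to 0.66; limma, adjusted p = 0.598). Ptgdr, a receptor of prostaglandin D2, had 9.3 to 34.5 and 22.3 to 50.5, with a difference of 1.01 (interval -0.01 to 2.03; limma, adjusted p = 0.610). Its 9.3, on wild-type mother 3, was below the highest bacterial probe set there, 10.

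The targets of mast cell mediators were measured in part. Of the 4 histamine receptor genes 2 were measured, and Hrh1 and Hrh2 had differences of 0.25 (interval -0.44 to 0.93) and 0.19 (interval -0.52 to 0.90). Among surface receptors and cytokines, 8 of 23 were measured, 7 of them positive. Il4ra, a subunit of the interleukin-4 receptor, had 79.0, 36.1 and 52.4 with a wild-type mother and 81.6, 74.9, 81.4 and 83.8 with an ApoE-null mother, a difference of 0.58 (interval 0.01 to 1.14; limma, adjusted p = 0.601). Enpp3, an ectoenzyme used as a surface marker of activated basophils and mast cells, had 1789.7 to 1812.6 and 1331.1 to 1630.5, without overlap, and a difference of -0.25 (interval -0.52 to 0.02). Of 8 proteins that chymase or tryptase can cleave or activate, 5 had a measured gene. Edn1, the precursor of endothelin, had a difference of -0.40 (interval -0.85 to 0.05) and Fn1, fibronectin, of -0.16 (interval -0.42 to 0.09).

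Mrgprb1, a member of the Mas-related receptor family, was below the filter and outside the naming rule, and was picked after its values were seen. It had signals of 25.9, 26.9 and 9.7 with a wild-type mother and 7.4, 39.0, 33.5 and 11.0 with an ApoE-null mother, above the bacterial probe sets on all but wild-type mother 3 and ApoE-null mother 1.

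Over the 7 arrays, the genes most like the profile of the 5 mast cell genes were sought among 12127 other genes, and 52 had r above 0.9. The highest was Lepr, the leptin receptor gene, with r of 0.996 and rho of 1, and 0.994 without the 2 arrays farthest from the median. Its signals were 415.8, 383.9 and 275.5 with a wild-type mother and 310.4, 422.7, 453.1 and 325.2 with an ApoE-null mother, a span much narrower than that of Cpa3. Next came Wdr20, Dpyd, Triqk and Naa30, with r of 0.981, 0.978, 0.974 and 0.972. St8sia6, a sialyltransferase gene, had r of 0.962 and a wider span, with 247.3, 123.0 and 54.9 and then 76.7, 146.1, 275.5 and 77.9. With 7 arrays and this many genes, high values of r are found readily, and they are given as a description.

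Cell types that lie beside a dissected carotid artery were set against the profile by their marker lists. The list for carotid body and ganglion, with all 6 genes measured, had a mean log2 deviation of 2.34, 0.57 and -1.36 with a wild-type mother and -1.06, 0.00, 0.70 and -1.19 with an ApoE-null mother. Its 3 lowest arrays were thus the same as those of the mast cell genes, while its highest was wild-type mother 1, and not ApoE-null mother 3. Its summed signal was 365.6 to 2781.3 in the wild-type mother group and 323.5 to 915.2 in the ApoE-null mother group, and 5 of its 6 genes exceeded the bacterial probe sets on all arrays. The adipocyte list, with 4 genes measured, was lowest on wild-type mother 3 (-1.49) and highest on ApoE-null mother 3 (0.58), as the mast cell genes were, but at 0.05 and 0.29 on ApoE-null mother 1 and 4. The part of these tissues in the mast cell signals was not tested.

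The lists for cells of the wall moved less. The smooth muscle list stayed between -0.24 and 0.20 and was highest on wild-type mother 3, where mast cell genes were lowest. The fibroblast list stayed between -0.15 and 0.17, the endothelial list between -0.29 and 0.28 and the macrophage list between -0.29 and 0.22. Over the 7 arrays the smooth muscle and fibroblast lists ran opposite to the mast cell profile, with r of -0.90 and -0.82. The endothelial and macrophage lists had -0.19 and -0.05, and the carotid body and ganglion and adipocyte lists 0.81 and 0.66. These r are given as a description, and what underlies them was not tested. The neutrophil list was named because neutrophils can express Hdc. It was at -1.06 on wild-type mother 1, the array with the highest Hdc signal, and at -0.16 to 0.50 on the others. Of its 7 genes with a probe set, 1 was above the bacterial probe sets on all arrays, so the score lies largely near background. The part of neutrophils in the Hdc signal was not tested.

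**Figure D5:**
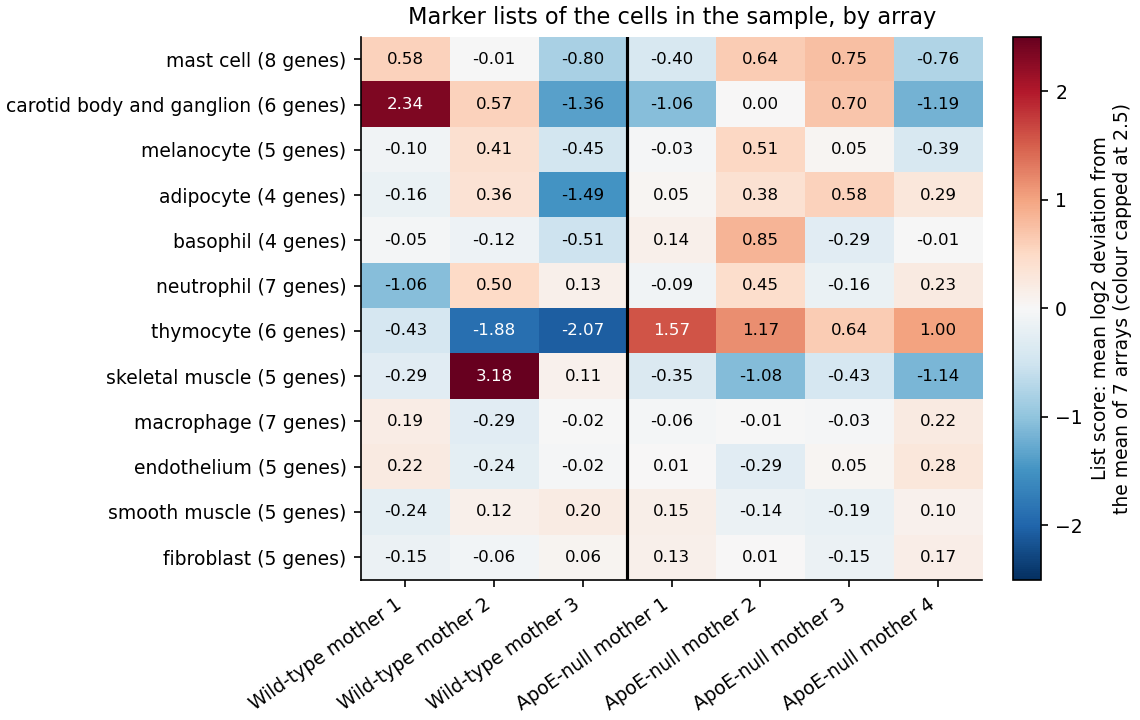
Mean log2 deviation of each marker list from its mean over the 7 arrays, with lists in rows, arrays in columns and the vertical line between the crosses. The mast cell row, over all 8 genes, and the carotid body and ganglion row both have their 3 lowest values on wild-type mother 3 and ApoE-null mother 1 and 4, whereas the thymocyte row separates the crosses.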

How the data were processed

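Carotid artery RNA of 7 samples was measured on 3' expression arrays, after amplification from an oligo-dT primer per the labels' protocols. Each probe set has a deposited MAS5 signal, which is an intensity on a linear scale. The submitters' processing notes name MAS5 and GCOS, and their versions were not given in the sources used here. Such arrays read the 3' end, so RNA degradation can lower a signal. The 2% trimmed mean was 200 on every array, and that scaling was kept. Of 45101 probe sets, 34958 had 1 symbol in the platform annotation, 932 several and 9211 none, and no symbol of the 8 mast cell genes needed updating. Groups came from the cross in the labels.

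Signals were transformed to log2(signal + 2), which understates changes of weak genes. The 64 control probe sets were left out, and those with a mean above the 40th percentile (23.6) were kept. The model was fitted over 27022 probe sets by lmFit and eBayes (intensity trend, no covariates) in limma 3.58.1 under R 4.3.3, and was tested on simulated data. A gene was represented by its strongest kept probe set. Exact permutation tests used all splits of the 7 arrays. The number of arrays limits the precision.

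The genes and lists were chosen with earlier results of these data known. Named were all 8 mast cell genes, in each role of the other list the 2 measured genes with the smallest p and all of the KIT axis, and the 6 genes most like the mast cell profile. Alternatives were pseudocounts of 1 and 16, no filter and the 60th percentile, quantile normalization, no trend, array weights, the mean over probe sets, and leaving out each array.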

Additional observations from a re-analysis of the deposited data

Results flagged for a closer look

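The 12 mast cell probe sets and the 65 measured partner genes gave 77 groups of 4 arrays, each checked for a single array far from the other 3. Only the ApoE-null mother group has 4 arrays, so the wild-type mother group was not checked. Chance alone gives this in about 1 in 20 groups, and 6 stood out, all of them partner genes. On ApoE-null mother 4, Srgn, which encodes the core protein of heparin in granules, had a signal of 3530.3, against 2576.2 to 2700.6 on the others. On the same array Stat5b, which acts downstream of KIT, had 390 against 283.8 to 286.9. Also there, Il3ra, a subunit of the interleukin-3 receptor, had 52.4 against 27.4 to 31.0, and C3ar1, a receptor of complement C3a, had 70 against 93.4 to 95.6. Runx1, a transcription factor of blood cell formation, had 46.1 on ApoE-null mother 3, against 73.4 to 75.1. Btk, a kinase of IgE receptor signalling, had 5 on ApoE-null mother 1, which is at background there, against 42.9 to 44.7. None of the 5 measured mast cell genes stood out in this way. The check cannot flag a group split into a high and a low pair of arrays. Cpa3 had such a split, with 474.7 and 526.1 against 141.5 and 151.5.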

How the results depend on the processing

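No mast cell gene and no partner gene passed the threshold of limma under any of 14 alternatives, and no mast cell gene reached an unadjusted p under 0.05. The adjusted p of limma ranged from 0.738 to 0.993 for Cpa3, 0.594 to 0.971 for Mcpt4, 0.758 to 0.979 for Cma1, 0.850 to 0.998 for Tpsb2 and 0.611 to 0.988 for Kit. The direction of each difference rested on single arrays. Leaving out 1 array at a time, the log2 difference ran from -0.17 to 0.52 for Cpa3, -0.11 to 0.78 for Mcpt4, -0.63 to 0.14 for Cma1, -0.24 to 0.32 for Tpsb2 and -0.11 to 0.63 for Kit. With array weights, which give wild-type mother 2 the lowest weight (0.508), that of Cma1 turned to 0.16, and the others moved by over 1.5 times, to 0.51 for Cpa3, 0.72 for Mcpt4, 0.25 for Tpsb2 and 0.45 for Kit. The pseudocounts, filters, normalization and trend turned no direction, and Tpsb2 was left out by the filter at the 60th percentile. The span of the profile was 1.35 to 1.74 without single arrays and 1.48 to 1.79 otherwise. Each measured gene has 1 kept probe set, so its mean over probe sets is the same value. No paired analysis was possible because the labels number the arrays of the crosses in separate blocks. Signals near the bacterial probe sets limit what can be said of Fcer1a, Ms4a2 and Hdc.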
